A study of Homo sapiens with 4 samples.

Results

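Glutathione S-transferases (GSTs) were followed in the human pre-B leukemia line Nalm-6 through every probe whose RefSeq accession maps to GSTM1, GSTM2, GSTM3, GSTM4, GSTP1, GSTK1, GSTO1, MGST1, MGST2 or MGST3. These 10 genes were represented by 15 of the 41000 probes on the array, among 18203 genes with a symbol. The study asked how actin-related proteins of INO80, a chromatin remodeling complex driven by ATP, affect gene expression under oxidative stress. Heme, which the cell breaks down through heme oxygenase 1 (HMOX1), was the stress, given at 20 uM for 12 h according to the treatment protocol.

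The 4 groups were wild-type cells (WT), Arp5 KO cells, in which both alleles of the Arp5 gene ACTR5 had been disrupted, Arp8 KO cells, in which the Arp8 gene ACTR8 had been disrupted, and cells labelled as Arp8 overexpression (Arp8 OE). All were Nalm-6 derivatives, each knockout was 1 established line, and each group was measured on 1 one-colour Agilent array. The labels were not in accord on the treatment of the knockouts: titles and protocol gave heme for every culture, the treatment field gave no heme for both knockouts, and the source field gave no heme for Arp5 KO alone. Genotype and treatment can therefore not be told apart in the knockout arrays. In RNA from whole cultures, fewer cells with a transcript and less transcript per cell cannot be told apart either.

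GSTs join the tripeptide glutathione to electrophilic compounds such as lipid peroxidation products and drugs, which makes them more soluble and ready for export from the cell. The soluble enzymes are grouped into classes, among them mu (GSTM1, GSTM2, GSTM3, GSTM4), pi (GSTP1), omega (GSTO1) and the mitochondrial and peroxisomal kappa enzyme (GSTK1), while MGST1, MGST2 and MGST3 are integral membrane proteins of an unrelated fold. Several GST genes are known targets of NRF2, an activator that binds antioxidant response elements and competes there with the heme-binding repressor BACH1.

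Start sites were read from RefSeq, assembly GRCh38.p14, which held entries for 9 of the 10 genes. MGST2 was not in that table. The 250 bases before the start of GSTP1, of GSTM1 and of GSTK1 are shown because these genes carried, in turn, the clearest fall in Arp8 KO, the mu class probe with most spots and the loss of signal in Arp5 KO. All 3 lie on the plus strand, at chr11:67583562-67583811 (GSTP1), chr1:109687567-109687816 (GSTM1) and chr7:143263191-143263440 (GSTK1). Capitals mark matches to TGACNNNGC, the core of the antioxidant response element.
GSTP1: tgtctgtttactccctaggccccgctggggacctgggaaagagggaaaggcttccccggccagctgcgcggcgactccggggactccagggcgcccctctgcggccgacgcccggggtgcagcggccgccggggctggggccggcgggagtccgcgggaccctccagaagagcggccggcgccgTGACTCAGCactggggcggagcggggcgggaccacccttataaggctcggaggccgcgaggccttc
GSTM1: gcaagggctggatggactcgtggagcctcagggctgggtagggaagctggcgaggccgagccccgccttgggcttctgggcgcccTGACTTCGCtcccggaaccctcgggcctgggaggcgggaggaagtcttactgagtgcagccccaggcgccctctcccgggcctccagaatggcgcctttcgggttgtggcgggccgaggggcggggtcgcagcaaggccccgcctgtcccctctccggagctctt
GSTK1: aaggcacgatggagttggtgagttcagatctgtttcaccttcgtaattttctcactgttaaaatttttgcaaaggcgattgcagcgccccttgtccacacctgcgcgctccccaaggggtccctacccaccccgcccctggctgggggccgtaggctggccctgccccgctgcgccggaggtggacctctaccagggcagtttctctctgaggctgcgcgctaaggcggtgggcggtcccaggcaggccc

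The core TGACNNNGC was searched on both strands in windows from 250 bases before to 50 bases after each start. It was present in 4687 of 35116 windows in the table, 13.3%, and in 4 of the 11 member windows, 36.4%. These belonged to 4 of the 9 genes. The match of GSTP1, TGACTCAGC, began 66 bases before the start and that of GSTM1, TGACTTCGC, 165 bases before it. GSTO1 had 2 matches, TGACTGAGC and TGACACAGC, which began 226 and 161 bases before its start, and MGST1 had TGACAAAGC after one of its starts. The GSTP1 match overlaps TGACTCA, the binding sequence of AP-1 factors, which was searched after the first match had been seen. TGACTCA was in 1738 windows of the table (4.95%), and among the members in that of GSTP1 alone. A match describes the letters in the window and not binding, and GSTK1, GSTM2, GSTM3, GSTM4 and MGST3 had no match in theirs.

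Each array held 43376 spots besides controls. The 75th percentile of the processed signal, to which each level below is relative, lay between 647.4 and 739.6 on the 4 arrays, and 55.8% to 57.4% of probes were well above background. From 264 probes printed at 10 positions, a log2 difference between 2 arrays had a technical SD of 0.06, which covers spots only. The array software gave each spot an error of its own of about 10% for bright spots. All 10 markers of pre-B cells were well above background on all 4 arrays, and of the markers of other blood cells 0 or 1 of 4 T cell, 1 or 2 of 5 myeloid, 2 or 3 of 5 erythroid and 1 or 2 of 5 NK genes were. CD14, HBA1, EPOR and NKG7 were above background on every array, CD3E on Arp8 KO alone, and their part in the results was not tested. Of the targeted genes, ACTR5 was lower in Arp5 KO by a log2 difference of -4.27. The 2 ACTR8 probes were lower in Arp8 KO by only -0.53 and -0.68. Both ACTR8 values lay above the 5th percentile of all probes tested in Arp8 KO, which was -0.94. These probes therefore do not by themselves show the loss of ACTR8, and the name Arp8 KO follows the label. On the array labelled Arp8 OE, ACTR8 differed from WT by 0.02 and -0.01, so the label is used as a name only and no difference on this array is read as an effect of more Arp8. HMOX1 differed from WT by log2 values of -2.98 (Arp5 KO), -2.91 (Arp8 KO) and -2.05 (Arp8 OE).

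Of the 15 member probes, 12 probes for 9 genes were well above background on at least 1 array of each pair compared. None of them was over 2-fold above WT on any of the 3 other arrays. In Arp5 KO 2 of the 12 were over 2-fold lower (GSTM3 and GSTK1), where 2.01% of all 24285 probes tested were over 2-fold lower and 1.69% over 2-fold higher. In Arp8 KO 2 of the 12 were lower (GSTM3 and GSTP1), against 4.35% lower and 3.37% higher over 24578 probes tested. In Arp8 OE 1 of the 12 was lower (GSTM3), against 2.15% lower and 2.96% higher over 24177 probes. With 12 probes these counts say nothing of the family as a whole. GSTP1 in Arp8 KO was the only one of these falls that was measured on both arrays of the pair, and the others are bounds. The 3 comparisons share the WT array, so a deviation of that array enters all of them.

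**Figure D1:**
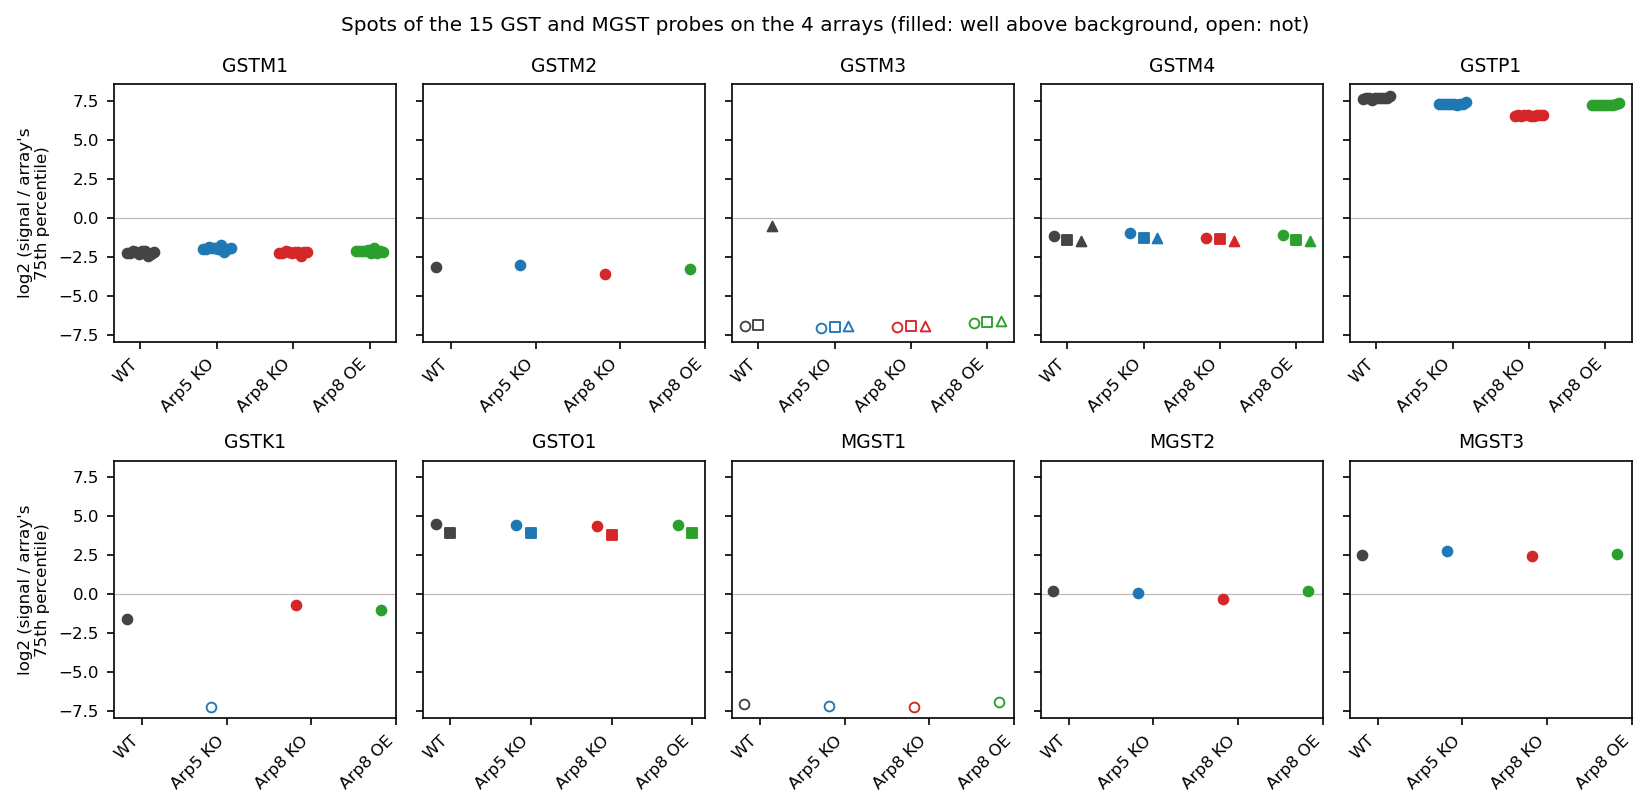
Level of every spot of the 15 GST and MGST probes on the 4 arrays, as log2 of the processed signal over the array's 75th percentile; filled points were well above background, open points were not, and different marker shapes in a panel are different probes of that gene. GSTP1 drops from 7.66 on WT to 6.55 on Arp8 KO, GSTK1 is missing on Arp5 KO alone, 1 of 3 GSTM3 probes is above background on WT alone, and MGST1 is at background throughout.

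GSTP1 encodes the pi class enzyme, an abundant GST of many dividing and malignant cells. Its probe (A_23_P202658) was printed at 10 positions. The mean processed signal was 149110 on WT (lowest spot 139186, highest 161846), 115349 on Arp5 KO (112133 to 124486), 61557 on Arp8 KO (59549 to 62994) and 98357 on Arp8 OE (95745 to 103695). WT was the brightest and Arp8 KO the dimmest array, with no overlap between the spots of either and those of any other array. Relative to the 75th percentile, the log2 level was 7.66 ± 0.05 (SD, 10 spots) on WT, 7.28 ± 0.04 on Arp5 KO, 6.55 ± 0.03 on Arp8 KO and 7.25 ± 0.03 on Arp8 OE. On this scale the spots of Arp5 KO (7.24 to 7.40) and Arp8 OE (7.21 to 7.32) overlapped, so the ranges of these neighbours in the order were not separate.

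Compared with WT, GSTP1 was 2.16-fold lower in Arp8 KO. The log2 difference was -1.11 ± 0.06 over 10 spots, with single spots from -1.21 up to the 2-fold line itself. Among the 24578 probes tested, 3.55% were as low or lower and 6.14% as far from WT in either direction. In Arp5 KO the log2 difference was -0.38 ± 0.04 (1.30-fold lower), and in Arp8 OE -0.42 ± 0.03 (1.34-fold lower). Of all probes tested, 17.8% in Arp5 KO and 24.2% in Arp8 OE lay as far from WT in either direction. Set directly against the other arrays, Arp8 KO was lower than Arp5 KO by -0.73 ± 0.04 and lower than Arp8 OE by -0.69 ± 0.03, while Arp5 KO was above Arp8 OE by 0.04 ± 0.02, with the same sign at each of the 10 positions. The spread between spots is the error of 1 array, and whether a second culture would give the same order could not be tested.

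Some GSTP1 spots lay beside spots that were over 2-fold brighter on 1 array than on each of the 3 others. Without these spots the difference in Arp8 KO was -1.13. Across the ways of scaling and background correction tried, it lay between -1.09 and -1.22 and stayed over 2-fold. The difference in Arp8 OE moved by more than its spread between spots, to -0.45 with median scaling and -0.61 with quantile normalization. Quantile normalization gave -0.39 in Arp5 KO, so the small gap between Arp5 KO and Arp8 OE depended on the scaling. Against Arp8 OE in place of WT, the GSTP1 difference was -0.69 in Arp8 KO, which is under 2-fold. In Arp5 KO it was 0.04, where the sign turned.

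Among 16566 probes of other genes that had a symbol and were well above background on all 4 arrays, the probes whose 3 differences from WT came closest to those of GSTP1 belonged to GBP1, a guanylate-binding protein, UBA3, a subunit of the NEDD8-activating enzyme, and RBM22, a splicing factor. The distance, taken over the 3 log2 differences, was 0.06 for GBP1 (Arp5 KO -0.36, Arp8 KO -1.11, Arp8 OE -0.47), 0.08 for UBA3 (-0.42, -1.12 and -0.35) and 0.08 for RBM22 (-0.39, -1.04 and -0.39). GBP1 and RBM22 had 2 probes each, and only the one closest to GSTP1 is given, so the values stand for that probe. Likeness over 3 differences that share a reference array is a description of these arrays.

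GSTK1 encodes the kappa class enzyme of mitochondria and peroxisomes. Its only probe (A_23_P20107) was printed once. The processed signal, with the error given by the software, was 250.1 ± 25.5 on WT, 5.02 ± 5.03 on Arp5 KO, 410.8 ± 41.3 on Arp8 KO and 315.1 ± 31.95 on Arp8 OE. The spot was therefore clear on 3 arrays and not well above background on Arp5 KO. The scanned spot medians showed the same pattern before any correction, with 310 on WT, 64 on Arp5 KO, 441 on Arp8 KO and 369 on Arp8 OE over local backgrounds of 25 to 35.

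On Arp5 KO, GSTK1 was at least 11.4-fold below WT. Its signal there was also at least 20.9-fold below that on Arp8 KO and at least 16.2-fold below that on Arp8 OE. In Arp8 KO the probe was 1.84-fold above WT (log2 0.88, software error 0.21) and in Arp8 OE 1.43-fold above WT (log2 0.52, software error 0.21), and 10.2% and 16.9% of all probes lay as far from WT. Of the 24285 probes tested in Arp5 KO, 17 including GSTK1 were as low or lower. Background correction by normexp with an offset of 50 gave -1.996 in place of the bound of -3.51, and the values without a floor gave -5.65.

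Loss of signal on Arp5 KO alone was rare. Of 21905 probes well above background on WT, Arp8 KO and Arp8 OE, 122 (0.557%) were not so on Arp5 KO. Of these, 8 were over 2-fold below the lowest of the other arrays. GSTK1 was one of these 8, a count made after its values had been seen. Each such gap is a bound set by the signal on the other arrays, so the 8 have no order by size of loss.

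The GSTK1 spot stood in the last column of the array, so it had 4 adjacent spots (centres within 20 pixels) and not 6. The 2 adjacent spots above background read 8365 and 972.5 on WT, 8071 and 1073 on Arp5 KO, 6999 and 919 on Arp8 KO, and 6106 and 776.9 on Arp8 OE. They kept their brightness on the Arp5 KO array, and the other 2 adjacent spots were at background on all arrays. None of the 34 spots within 60 pixels was over 2-fold dimmer or brighter on Arp5 KO than on each of the other arrays. One of them read 173.3 on Arp5 KO and 411.7 on WT, but was dim on Arp8 KO too (133.3). With a single spot and no further probe, a fault of the spot itself and loss of the transcript cannot be told apart.

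**Figure D2:**
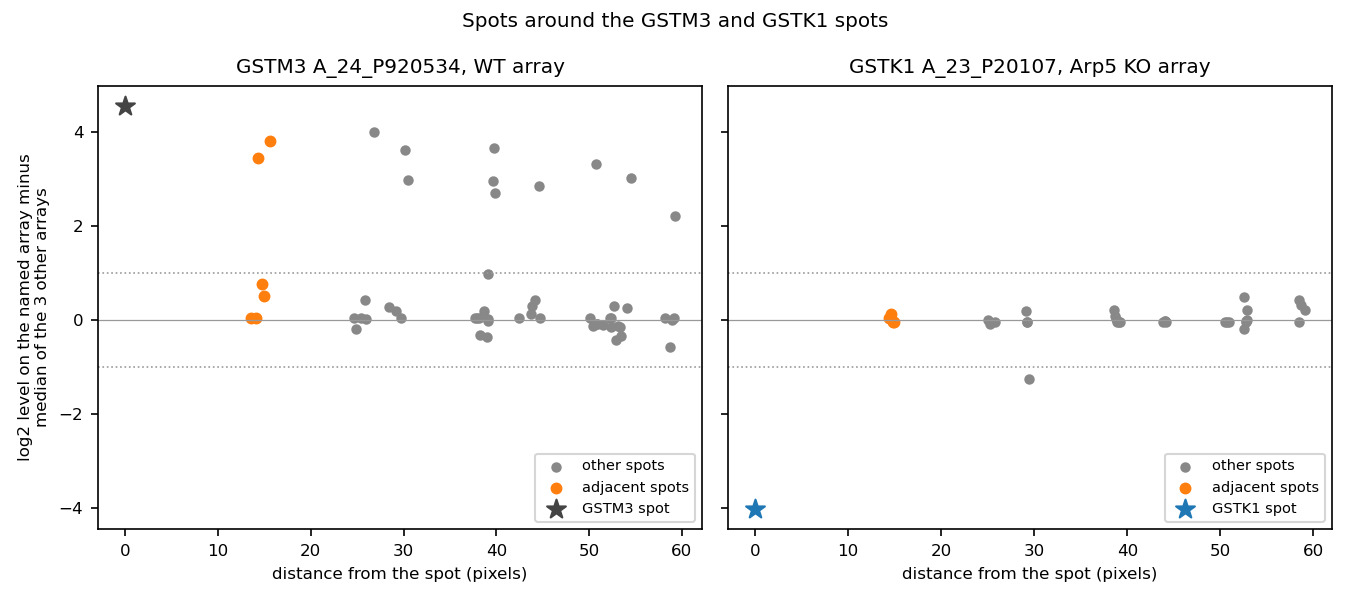
Spots within 60 pixels of the GSTM3 spot on the WT array (left) and of the GSTK1 spot on the Arp5 KO array (right); the horizontal axis is the distance from that spot in pixels and the vertical axis the spot's log2 level on the named array minus its median on the 3 other arrays. The star is the spot itself, orange points are adjacent spots and dotted lines mark 2-fold. Bright spots surround GSTM3 on WT, whereas the adjacent spots of GSTK1 sit near 0.

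GSTM3 encodes a mu class enzyme best known from brain and testis. It had 3 probes, which did not give the same picture. The probe A_24_P920534 read 517.8 ± 52.2 (software error) on WT and 6.08 on Arp5 KO, 5.403 on Arp8 KO and 6.52 on Arp8 OE, where it was not well above background. Its scanned spot medians were 430.5 on WT and 43 to 45 on the other arrays. The probe A_23_P12343 read 5.92 on WT, 5.64 on Arp5 KO, 5.04 on Arp8 KO and 6.01 on Arp8 OE, and A_24_P914434 read 6.21, 5.88, 5.37 and 6.32 in the same order. Neither was well above background on any array, WT included. The first probe alone thus put GSTM3 at least 23.5-, 25.3- and 19.8-fold below WT. The size of these values turned on the treatment of dim spots: normexp gave log2 differences of -2.44, -2.42 and -2.34, and values without a floor gave -6.42, -6.42 and -6.13, in the same order of arrays.

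The array around the bright GSTM3 spot was uneven on WT. Of its 6 adjacent spots, 2 were over 2-fold brighter on WT than on each of the other arrays. One of them read 239.9 on WT against 6.10 on Arp5 KO, 5.42 on Arp8 KO and 6.54 on Arp8 OE. The other read 484.9 against 15.04, 30.7 and 38.8. Within 60 pixels 12 of 56 spots behaved so, where 340 of all 43376 spots did. Of all single-spot probes tested, 4.40% had at least 1 such adjacent spot on WT. Over the whole array, the bright patch included, 568 probes passed the background limit only on WT, 193 of them by over 2-fold, and 3 including GSTM3 by a gap of at least 4.31. The values of the first probe without its neighbourhood could not be had, since it was printed once, and the part of the bright patch in the GSTM3 difference was not tested.

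The other mu class genes, GSTM1, GSTM2 and GSTM4, were detected by 5 probes on all 4 arrays. Their genes are neighbours of GSTM3 and GSTM5 on chromosome 1 and related in sequence, and binding of a probe to transcripts of another mu gene was not tested. All 5 probes were slightly above WT in Arp5 KO, with log2 differences between 0.11 and 0.28 and a median of 0.22. The median over all 24285 probes tested was 0.00, so about as many lay above WT as below. Between 27.2% and 61.5% of all probes lay as far from WT as each of the 5. Most of the 5 were for GSTM4, so the count is not one of genes and says nothing of the mu class. In Arp8 KO the 5 probes ranged from -0.47 to 0.05, with 2 of 5 above WT, and in Arp8 OE from -0.11 to 0.10, with 4 of 5 above WT. The sign in Arp5 KO was the same for every one of these probes under each setting run. However, the series matrix, the filters on dim probes, the 4-fold threshold and the mean over a gene's probes could not change it. Normexp brought the lowest of the 5 to 0.05. Where spots beside a bright spot were dropped, 1 of the 5 had to be left out.

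GSTM1, whose enzyme conjugates many aromatic epoxides, was printed at 10 positions (A_23_P115407). The mean signal was 155.7 on WT (133.0 to 167.3), 190.4 on Arp5 KO (165.3 to 216.2), 139.6 on Arp8 KO (122.3 to 149.3) and 146.6 on Arp8 OE (133.3 to 166.9). Arp5 KO was the brightest array, and its dimmest spot lay just below the brightest of WT. Spot by spot, GSTM1 was higher in Arp5 KO than in WT at all 10 positions, by 0.28 ± 0.07 (0.16 to 0.38), and 27.2% of all probes lay as far from WT. The software error of this GSTM1 difference was 0.21, and normexp brought the difference to 0.16. In Arp8 KO the difference was 0.01 ± 0.06 and in Arp8 OE 0.10 ± 0.11, which did not exceed the spread between spots.

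GSTM4 had 3 probes, which gave similar values. The first (A_23_P217917) read 324.9 on WT, 381.9 on Arp5 KO, 267.8 on Arp8 KO and 297.1 on Arp8 OE. The second (A_24_P396660) read 272.8, 299.7, 251.6 and 243.9, and the third (A_24_P396662) read 258.4, 301.7, 228.5 and 234.4 in the same order. After scaling, the 3 probes differed from WT by 0.22, 0.13 and 0.22 in Arp5 KO, by -0.11, 0.05 and -0.01 in Arp8 KO and by 0.05, 0.02 and 0.04 in Arp8 OE. The software error of each of these differences was about 0.21, so none stood clearly apart from 0 on its own. An adjacent spot of the first probe was bright on WT alone.

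GSTM2 is the mu enzyme noted for its activity on aminochromes. Its probe (A_23_P397208) read 82.1 ± 9.94 on WT, 89.3 ± 10.4 on Arp5 KO, 52.8 ± 7.02 on Arp8 KO and 67.0 ± 8.73 on Arp8 OE. Arp8 KO was the dimmest array, and the log2 difference of -0.47 (software error 0.26) made GSTM2 the lowest of the 5 mu probes there. Of all probes tested in Arp8 KO, 29.4% lay as far from WT as GSTM2. An adjacent spot of the GSTM2 probe was over 2-fold dimmer on Arp8 KO than on the other arrays. In Arp5 KO and Arp8 OE the differences were 0.11 and -0.11. Normexp brought the value in Arp8 KO to -0.18 and turned that in Arp8 OE to 0.04.

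GSTO1, an omega class enzyme with thioltransferase and dehydroascorbate reductase activity, had 2 probes. The first (A_23_P1254) read 16758 on WT, 16103 on Arp5 KO, 13431 on Arp8 KO and 13969 on Arp8 OE, and the second (A_24_P304051) read 10956, 11042, 8970 and 9902. After scaling they differed from WT by -0.07 and 0.00 (Arp5 KO), -0.15 and -0.12 (Arp8 KO), and -0.08 and 0.04 (Arp8 OE). All of these lay within the software error of 0.20.

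The membrane-bound members differed from each other. MGST2, which can make leukotriene C4, read 832.5 ± 83.4 on WT, 789.4 ± 79.1 on Arp5 KO, 532.2 ± 53.4 on Arp8 KO and 748.9 ± 75.1 on Arp8 OE (A_23_P110167). It was lower in Arp8 KO by -0.48 (software error 0.20) and differed by -0.09 and 0.03 in Arp5 KO and Arp8 OE. Of all probes tested in Arp8 KO, 28.55% lay as far from WT as MGST2. MGST3, a related glutathione transferase and peroxidase, read 4273 on WT, 5142 on Arp5 KO, 3654 on Arp8 KO and 3796 on Arp8 OE (A_23_P51548). Its differences were 0.26, -0.06 and 0.01, with a software error of 0.20. MGST1, the microsomal enzyme of liver and many other tissues, read 5.53, 5.17, 4.48 and 5.42 (A_23_P36658) and stayed at background on all 4 arrays, so no fold is given.

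**Figure D3:**
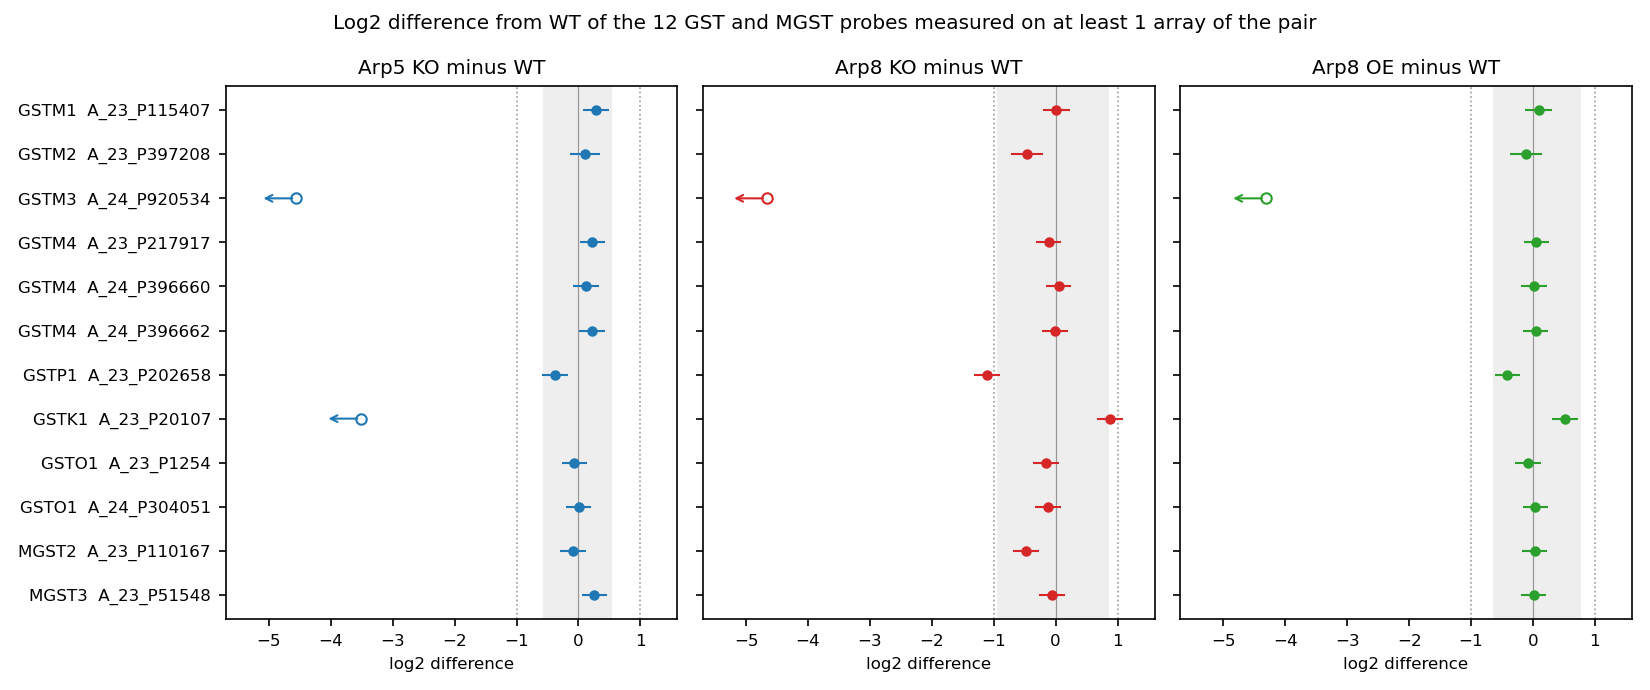
Log2 difference from WT of the 12 member probes tested, with 1 panel per array compared; bars are the software error, open points with arrows are bounds for probes not well above background on the array compared, the grey band holds the middle 90% of all probes tested and dotted lines mark 2-fold. Outside the band lie GSTM3 on all 3 arrays, GSTK1 on Arp5 KO and on Arp8 KO (0.88), and GSTP1 on Arp8 KO (-1.11).

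Without the bounds, most member probes lay within 2-fold of WT and GSTP1 in Arp8 KO did not. In Arp5 KO 10 member probes were measured on both arrays, 7 above and 3 below WT, with a median of 0.12 and a range from -0.38 to 0.28. In Arp8 KO 11 were measured, 3 above and 8 below, with a median of -0.11 and a range from -1.11 to 0.88. In Arp8 OE the 11 had a median of 0.03 and a range from -0.42 to 0.52, with 8 above and 3 below. The medians over all probes tested were 0.00, 0.03 and 0.00. GSTK1 and GSTP1 formed the 2 ends of the range in Arp8 KO.

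Related genes were described as 4 lists. The superfamily list held other GST genes, genes with a GST-like fold and genes of the MGST membrane family. The rest were glutathione supply, conjugate export with the steps to mercapturates, and other enzymes for electrophiles and carbonyls. Pooled over the lists, 5 of 59 probes tested were over 2-fold lower in Arp5 KO (8.47%) and none was over 2-fold higher. In Arp8 KO 10 of 61 were lower (16.4%) and 1 was higher, and in Arp8 OE 4 of 58 were lower (6.90%) and none was higher. These shares stand beside the 2.01%, 4.35% and 2.15% of all probes that were lower. They count probes and not genes, and SLC7A11 and ALOX5AP each entered more than once in both knockouts. The lists were chosen with earlier results of these data known. GSTT2B, GGT1 and AKR1C2 had no probe by that symbol.

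In the glutathione supply list, Arp5 KO had a median of -0.40, Arp8 KO of -0.75 and Arp8 OE of -0.20 over 12 probes, of which 2, 4 and 0 were over 2-fold lower. GCLM, the regulatory subunit of the enzyme for the first step of glutathione synthesis, read 3609 on WT, 2301 on Arp5 KO, 1344 on Arp8 KO and 1799 on Arp8 OE. Its differences were -0.66, -1.26 and -0.82, while GCLC, the catalytic subunit, differed by -0.04, -0.17 and -0.32. GSR, which reduces oxidised glutathione, had 2 probes, with differences of -0.41 and -0.36 (Arp5 KO), -1.13 and -0.74 (Arp8 KO), and -0.73 for both (Arp8 OE). SLC7A11, the cystine carrier, had 3 probes. A_32_P165477 and A_32_P42684 both lay at -2.06 in Arp5 KO, at -3.33 and a bound of -3.48 on the Arp8 KO array, and at 0.00 and -0.22 in Arp8 OE. The remaining, dim probe (A_24_P200420), above background on WT alone, gave bounds of only -0.66, -0.77 and -0.42. Not all genes of the list lay below WT in Arp8 KO. There GSS, the glutathione synthetase, differed by 0.03, GGCT by 0.02 and CHAC2 by 0.30. GGCT and CHAC2 are enzymes of glutathione breakdown, and so is CHAC1, which went the other way in Arp8 KO. CHAC1 differed by -0.56 (Arp5 KO), -0.79 (Arp8 KO) and 0.90 (Arp8 OE).

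Of the superfamily list, 15 probes were tested in each knockout and 14 in Arp8 OE, with medians of 0.05, -0.18 and 0.32. The median in Arp8 OE fell between probes of EEF1G, which differed from WT there by 0.31, 0.32 and 0.34. It does not stand for the GST genes of the list, since GSTCD differed by -0.36 and 0.14 there. ALOX5AP, the 5-lipoxygenase activating protein of the same membrane family as MGST2, had 2 probes, with differences of -1.51 and -1.57 (Arp5 KO), -1.85 and -2.05 (Arp8 KO), and 0.43 and 0.33 (Arp8 OE). CLIC4, an intracellular chloride channel protein with a GST fold, had 3 probes, of which 1 passed 2-fold in Arp8 KO (A_23_P259189, with -0.60, -1.03 and 0.18). The other CLIC4 probes gave -0.46, -0.39 and 0.64 (A_23_P135494) and -0.59, -0.46 and 0.54 (A_23_P135499). GSTZ1, the zeta class enzyme of tyrosine breakdown, differed by 0.05, 0.39 and -0.18. GSTO2 stayed at background on all 4 arrays. No superfamily probe was over 2-fold higher on any of the 3 arrays. Those over 2-fold lower were of ALOX5AP and CLIC4 alone, and none was of a gene named GST.

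The export and mercapturate list moved little, with medians of 0.11, 0.10 and -0.11. ABCC1, a pump for glutathione conjugates, differed by -0.03, -0.34 and 0.22. Only bounds passed 2-fold, for DPEP1 in Arp8 KO (at least 1.20 on the log2 scale above WT) and ABCC4 in Arp8 OE (1 of 3 probes, with a bound of -1.12).

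In the list of other electrophile and carbonyl enzymes the medians were -0.10, -0.51 and -0.23 over 17 probes, of which 1, 3 and 3 were over 2-fold lower. NQO1, a quinone reductase, read 269.6 on WT, 170.8 on Arp5 KO, 66.4 on Arp8 KO and 73.8 on Arp8 OE, with differences of -0.67, -1.86 and -1.69. CBR1, a carbonyl reductase, differed by -1.07, -1.48 and -1.29. AKR1C3, an aldo-keto reductase, differed by 0.06 in Arp5 KO and was not well above background on the other 2 arrays, with bounds of -1.45 and -1.10.

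**Figure D4:**
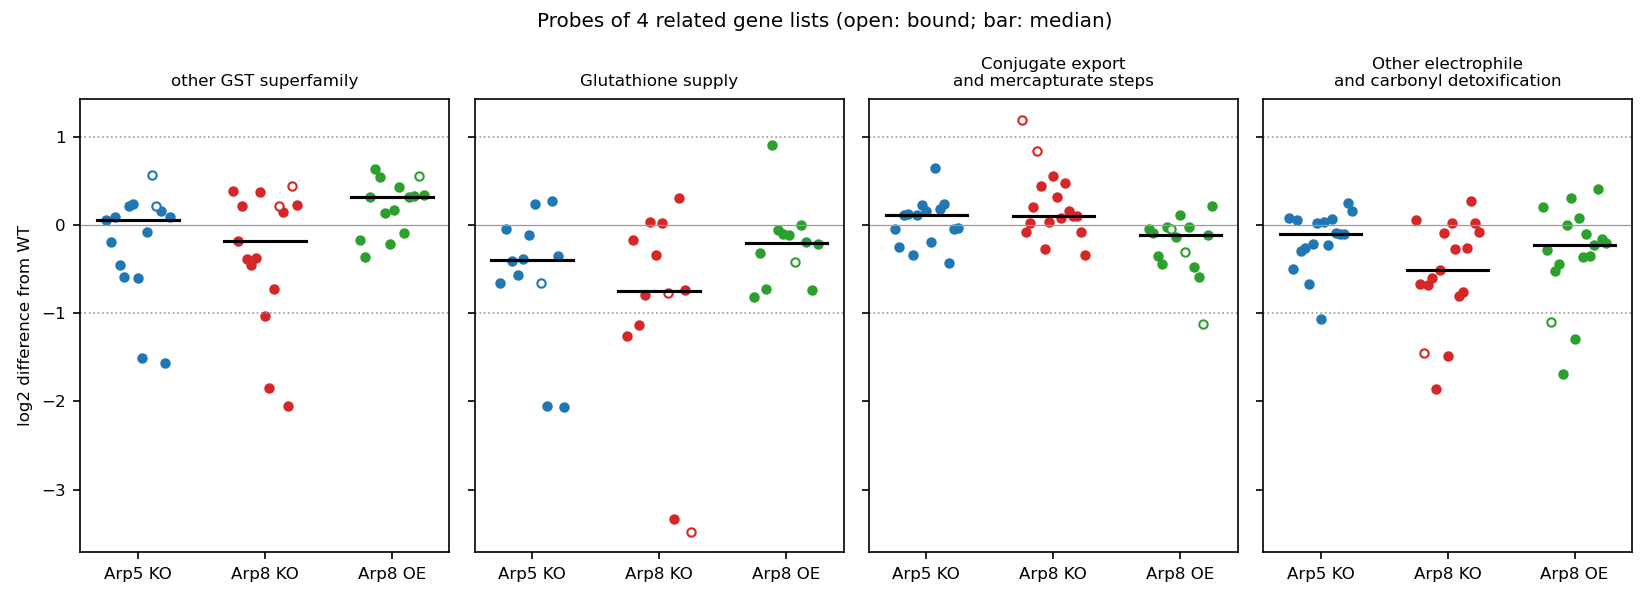
Log2 difference from WT of every probe tested in the 4 lists of related genes, with 1 panel per list; bars are medians, open points are bounds and dotted lines mark 2-fold. The glutathione supply list has the lowest median, -0.75 in Arp8 KO, and export and mercapturate probes gather around 0.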

How the data were processed

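Total RNA of 4 Nalm-6 cultures was labelled with Cy3 and hybridised to 4 arrays on 1 slide with 1 scan time. Per the file headers, Agilent Feature Extraction 10.10.1.1 made the deposited scanner files. Their processed signal is a linear intensity that the authors' software had background-subtracted, with no normalization between arrays. The authors' deposited series matrix holds intensity equal to it times 1 factor per array (1.99 to 2.29). Groups followed the genotype in the labels.

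Processed signals were divided by the 75th percentile of the array's spots without controls and taken to log2. Outlier spots (69 to 76 per array) were dropped and replicate spots averaged. A probe was tested if at least 50% of its spots were well above background on 1 array of the pair. A dim probe was raised to the lowest level among probes well above background unless it was already higher, so its difference is a bound (at least N-fold). Probes of a gene were not merged, and were named through RefSeq accessions against assembly GRCh38.p14 (27210 probes, 66.4%). The array design names build hg19, so no probe coordinates are given.

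With 1 array per group no test was made. The number of arrays limits the precision, and errors are SDs between spots of 1 array or the software's spot error. The members, lists and rules were chosen with earlier results of these data known. Named genes were the members, ACTR5, ACTR8, HMOX1, list genes past 2-fold with measured signal on both arrays, GSR, GCLC, GCLM, ABCC1, GSTZ1 and GSTO2, and the 3 genes most like a member measured past 2-fold. DPEP1, ABCC4, AKR1C3, GSS, GGCT, CHAC1, CHAC2, EEF1G and GSTCD were named after their values were seen. Alternatives were median scaling, quantile normalization, cyclic loess, normexp with an offset of 50 (on the median spot signal), the series matrix, other filters on dim probes, Arp8 OE as reference, spots beside a bright spot left out, a 4-fold threshold and the mean over a gene's probes. Python 3.11.15, numpy 2.4.6, pandas 2.3.3, scipy 1.17.1, R 4.3.3 and limma 3.58.1 were used, and the calculation was tested on simulated data.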

Additional observations from a re-analysis of the deposited data

How the results depend on the processing

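Of 297 member differences recomputed under 9 settings, 261 moved by less than the spread between spots, a narrower limit than the software error. Another 36 moved by more, and no difference past 2-fold changed sign. Part of the 261 could not move by construction. These were all 36 series matrix values, all 32 for probes measured on both arrays, and 32 with no filter and no floor. The technical SD covers 1 array per group, so depth of replication, and signal near background for GSTM2, GSTM3, GSTK1 and MGST1, limit every value. No paired analysis was possible because each group had 1 array. No filter and no floor shifted the median of all probes by -0.10 (Arp8 KO) and 0.11 (Arp8 OE). The cause of the changes listed here was not tested. Lists are named supply, export, superfamily and electrophile.

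With probes measured on both arrays only, the members over 2-fold lower went from 2 to 0 in Arp5 KO, 2 to 1 in Arp8 KO and 1 to 0 in Arp8 OE, because bounds drop out by construction; list probes went from 1 to 0 higher in Arp8 KO and 4 to 2 lower in Arp8 OE, and medians became -0.085 (superfamily, Arp5 KO) and -0.38, -0.54 and -0.39 (superfamily, supply and electrophile, Arp8 KO). Against Arp8 OE, 1 member was lower in Arp5 KO and 0 in Arp8 KO, 2 list probes were higher in Arp5 KO, and medians became -0.19, 0.16 and 0.16 (superfamily, supply and electrophile, Arp5 KO) and -0.24, 0.50 and -0.16 (supply, export and electrophile, Arp8 KO). Without spots beside a bright spot, which drops the GSTM3 probe, the members lower were 1, 1 and 0, and medians became 0.15, 0.21 and -0.60 (superfamily, export and electrophile, Arp8 KO) and 0.24 and -0.043 (superfamily and export, Arp8 OE). At 4-fold 1 member was lower in Arp8 KO, and the list counts were 2 lower (Arp5 KO), 3 lower with 0 higher (Arp8 KO) and 0 lower (Arp8 OE).

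Normexp gave list counts of 3 lower (Arp5 KO), 0 higher (Arp8 KO) and 2 lower (Arp8 OE), and medians of 0.0024 (export, Arp5 KO), 0.0041, -0.51 and -0.32 (superfamily, supply and electrophile, Arp8 KO) and 0.21 and -0.14 (superfamily and electrophile, Arp8 OE). The mean over a gene's probes counts genes and not probes. It gave 3 (Arp5 KO) and 6 (Arp8 KO) list genes lower, and medians over genes of 0.022 (export, Arp5 KO), 0.20 and -0.35 (superfamily and supply, Arp8 KO) and 0.12 and -0.20 (superfamily and export, Arp8 OE). No filter and no floor gave 3 (Arp8 KO) and 2 (Arp8 OE) list probes higher, and medians of -0.087 and -0.034 (superfamily and export, Arp5 KO), -0.10 and -0.16 (superfamily and electrophile, Arp8 KO) and 0.17, -0.022 and -0.10 (superfamily, export and electrophile, Arp8 OE). The superfamily median in Arp8 OE became 0.16 with quantile normalization and 0.23 with cyclic loess.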
